A study of Rattus norvegicus with 28 samples.

Results

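Ion channels are membrane proteins that let selected ions cross the membrane, and in sensory neurons they set when a stimulus becomes an action potential. Voltage-gated sodium channels drive the upstroke of the spike, potassium channels oppose it and voltage-gated calcium channels couple it to transmitter release. TRP, acid-sensing and P2X channels respond to temperature, irritants, protons or ATP, and GABA-A, glycine, glutamate, nicotinic and 5-HT3 receptors are channels opened by transmitters. The dorsal root ganglion (DRG) holds the cell bodies of these neurons beside satellite glia, Schwann cells and vessels.

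The list described here holds 63 genes of 1949 that the study lists as differentially expressed in both of its pain models, chronic constriction injury (CCI) and complete Freund's adjuvant (CFA), out of 32754 genes in the count table. They were chosen by the start of the gene symbol, which is shared with a channel family. The name rule matched 67 genes, and 4 of them, Scn11a, P2rx3, Cacna2d1 and Grik4, were set aside by name. Membership therefore rests on the study's own comparison of each model with naïve rats, whose fold changes and directions were not used here. Of the 63 genes, 51 encode a pore-forming subunit or a transporter of a channel family, 7 encode an auxiliary subunit and 5 only share the first letters of a name. The last are Glrx, Itprid2, Itpripl2, Tmem163 and Tmem169. Each is kept and named, because the rule takes them.

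RNA was measured in 2 libraries, called CFA replicate 1 and CFA replicate 2, each from the pooled ipsilateral L4-L6 DRGs of 1 adult male Sprague-Dawley rat. The rats were 12 weeks old and had received CFA, an oil emulsion with killed mycobacteria that inflames the tissue, in the hind paw 48 h before. Naïve and CCI RNA libraries were not analysed here, so the values describe levels after CFA and the spread between rats, and give no effect of CFA. The libraries held 10520647 and 28825688 counts on genes, a ratio of 2.74. Levels are CPM, the counts on a gene scaled to the library total, and they rise with the length of a transcript as well as with its number of copies, so CPM is not compared between genes as abundance. Intervals are exact 95% intervals for counting error and do not cover the spread between animals. All 10 sensory neuron markers had counts in both libraries, summing to 37563 and 38673 CPM, and none of the 6 Schwann cell, 4 satellite glia and 3 vascular and fibroblast markers was at 0. Markers could be taken only from genes that the study lists as differentially expressed in both models.

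Every gene of the list reached 10 counts in both libraries. The median level was 50.3 CPM over the 63 genes, with 49.3 CPM in replicate 1 and 51.2 CPM in replicate 2. The middle 50% of the genes lay between 17.0 and 103.8 CPM. Over the other 1886 genes of the study's shared list, of which 1829 reached 10 counts in each library, the median was 19.9 CPM. Over all 15115 genes that reached 10 counts in each library it was 21.4 CPM, and over the 21122 genes with a count in either library 9.09 CPM. Transcript lengths were not taken into account, so these medians are not compared as abundance. Together the 63 genes took 0.570% of all counts in replicate 1 and 0.603% in replicate 2. At least 100 CPM was reached by 18 genes, 33 lay between 10 and 100 CPM and 12 below 10 CPM. Counts were concentrated in few genes. Scn1a, Scn9a and Scn10a took 29.9% of the counts on the list in replicate 1 and 30.5% in replicate 2, and the 10 genes with the most counts took 57.0% and 56.9%.

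**Figure D1:**
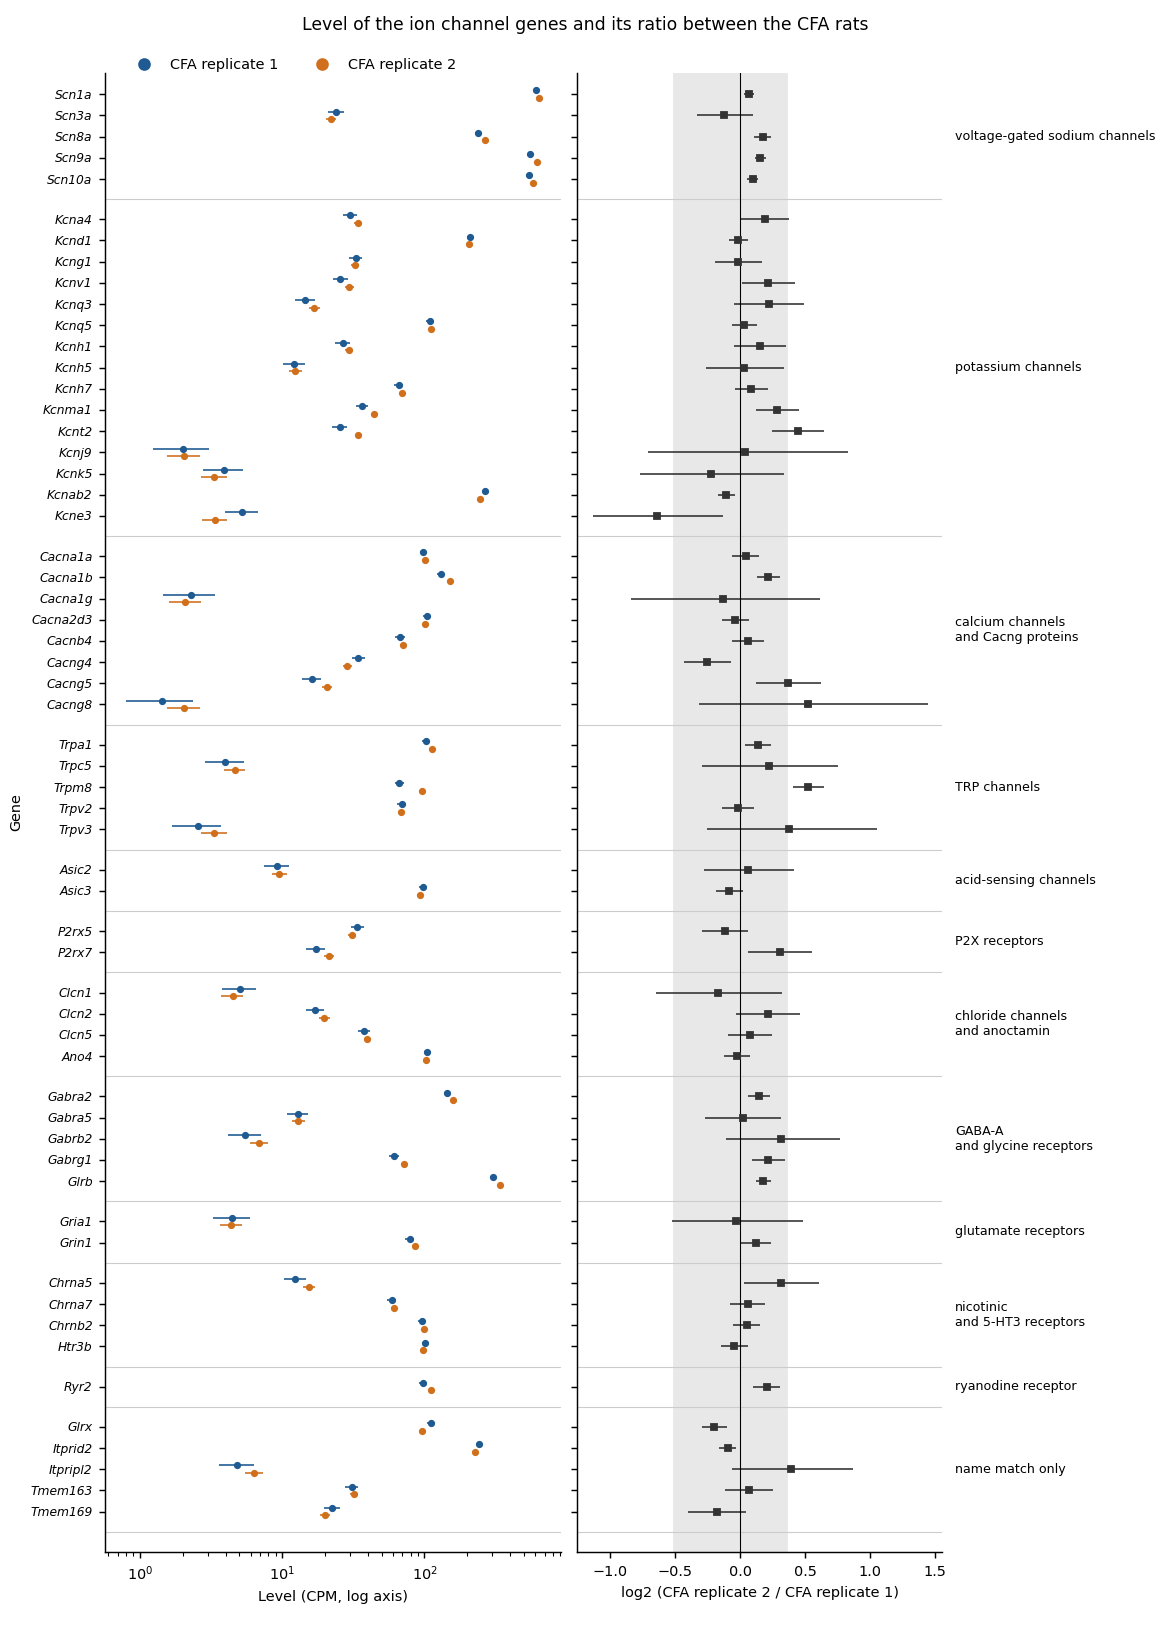
Level of 58 of the 63 genes in CPM on a log axis (left, blue for CFA replicate 1, orange for CFA replicate 2) and the log2 ratio of replicate 2 to replicate 1 (right), by family, with exact 95% counting intervals as bars. The grey band holds the middle 90% of the ratios of all 15115 genes, from -0.51 to 0.36, and 51 of the 58 genes lie in it. "Name match only" marks the 5 genes that are no channel genes.

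The voltage-gated sodium channels took 34.5% (34.2-34.9%) of the counts on the list in replicate 1 and 35.3% (35.0-35.5%) in replicate 2, more than any other family in both rats. Scn1a (ENSRNOG00000053122), which encodes the sodium channel Nav1.1, had 612 and 642 CPM (627 ± 20.8, SD, n = 2). Scn9a (ENSRNOG00000006639) encodes Nav1.7, which amplifies small depolarizations in nociceptors, and had 553 and 616 CPM (584 ± 44.5, SD, n = 2). Scn10a (ENSRNOG00000032473) encodes the tetrodotoxin-resistant channel Nav1.8 of nociceptors and had 541 and 578 CPM (559 ± 26.4, SD, n = 2). These 3 genes had nearly equal shares of the counts on the 5 sodium channel genes of the list. The shares were 31.1%, 28.1% and 27.5% in replicate 1 and 30.2%, 29.0% and 27.2% in replicate 2. Scn11a, set aside by name, and sodium channel genes outside the list are not counted in them. Scn8a, the Nav1.6 channel of the nodes of Ranvier, had 238 and 268 CPM (253 ± 21.3, SD, n = 2). Scn3a, the Nav1.3 channel that is prominent before birth, had 23.9 and 21.96 CPM (22.9 ± 1.34, SD, n = 2), and was the only one of the 5 that was lower in replicate 2, by an amount within its counting interval (-0.12, interval -0.33 to 0.097). The other 4 were higher in replicate 2 by 0.068 to 0.17 on the log2 scale, each beyond counting error. Sodium channel genes have similar coding sequences, so reads that fit more than 1 of them could be lost or split in counting.

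**Figure D2:**
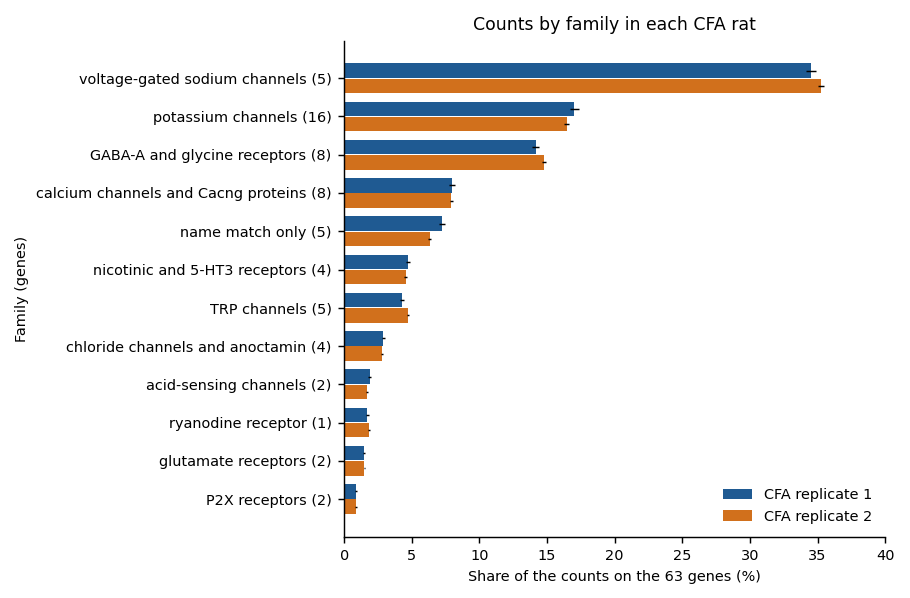
Share of the counts on the 63 genes taken by 12 families, in percent, in CFA replicate 1 (blue) and CFA replicate 2 (orange), with exact 95% binomial intervals as bars and the number of genes in parentheses. The order of the largest 3 families was the same in both rats, and no share shown moved by more than 0.88 percentage points.

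The 4 sodium channel genes with a single promoter entry in RefSeq are shown because they hold both the highest and the lowest GC content among the 44 genes of the list with such an entry, while belonging to 1 family. Each line gives the 250 bases before the gene start, 5′ to 3′ as transcribed, in assembly GRCr8, which is not the build of the counts. Capitals mark CG dinucleotides.
Scn8a, chr7:133860977-133861226, plus strand: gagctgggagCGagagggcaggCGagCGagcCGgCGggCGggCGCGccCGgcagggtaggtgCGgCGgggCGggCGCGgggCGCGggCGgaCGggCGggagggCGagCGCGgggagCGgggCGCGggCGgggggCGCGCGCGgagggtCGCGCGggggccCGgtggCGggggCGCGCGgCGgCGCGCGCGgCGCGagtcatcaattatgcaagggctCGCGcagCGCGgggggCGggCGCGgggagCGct
Scn10a, chr8:128340299-128340548, minus strand: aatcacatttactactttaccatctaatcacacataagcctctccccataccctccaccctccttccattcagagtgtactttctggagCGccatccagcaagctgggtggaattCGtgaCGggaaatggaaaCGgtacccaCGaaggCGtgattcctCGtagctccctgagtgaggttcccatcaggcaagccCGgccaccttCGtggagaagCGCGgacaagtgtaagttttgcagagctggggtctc
Scn9a, chr3:71701378-71701627, minus strand: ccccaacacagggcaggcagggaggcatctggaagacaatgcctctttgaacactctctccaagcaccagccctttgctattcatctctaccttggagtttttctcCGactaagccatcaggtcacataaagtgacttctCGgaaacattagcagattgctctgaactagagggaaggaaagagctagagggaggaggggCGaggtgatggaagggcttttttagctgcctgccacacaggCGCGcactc
Scn3a, chr3:70666199-70666448, minus strand: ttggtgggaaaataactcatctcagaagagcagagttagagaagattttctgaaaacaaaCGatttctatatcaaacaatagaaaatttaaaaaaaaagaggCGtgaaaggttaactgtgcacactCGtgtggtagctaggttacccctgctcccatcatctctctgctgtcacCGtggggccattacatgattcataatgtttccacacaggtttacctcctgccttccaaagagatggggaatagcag
The Scn8a window had 53 CG dinucleotides and a GC content of 86.0%, the highest of these 44 genes. Scn10a had 11, Scn9a 5 and Scn3a 4, with 53.2%, 52.4% and 41.6% GC, and the last value is the lowest of these 44 genes.

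The 16 potassium channel genes took 17.0% of the counts on the list in replicate 1 and 16.5% in replicate 2. Among the channels that open on depolarization, Kcnd1, which encodes the A-type channel Kv4.1, had 208 and 206 CPM (207 ± 1.29, SD, n = 2). Kcna4, the A-type channel Kv1.4, had 30.04 and 34.3 CPM (32.2 ± 2.997, SD, n = 2). Kcng1 and Kcnv1 encode silent subunits that form channels only together with other Kv subunits. Kcng1 had 32.98 and 32.6 CPM (32.8 ± 0.239, SD, n = 2) and Kcnv1 25.6 and 29.7 CPM (27.6 ± 2.92, SD, n = 2). Kcnab2, the cytoplasmic beta subunit of Kv1 channels, had the most counts of the family at 266 and 247 CPM (256 ± 13.3, SD, n = 2). It was lower in replicate 2 by an amount beyond counting error (-0.11, interval -0.17 to -0.042).

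The Kcnq genes encode subunits of the M-current, a slow potassium current that holds down repetitive firing. Kcnq5 had 109 and 111 CPM (110.2 ± 1.82, SD, n = 2). Kcnq3 had 14.4 and 16.8 CPM (15.6 ± 1.68, SD, n = 2). The Kcnh genes encode ether-à-go-go channels. Kcnh7, an Erg channel, had 65.97 and 69.97 CPM (67.97 ± 2.83, SD, n = 2). Kcnh1 and Kcnh5 are Eag channels, with 26.6 and 29.5 CPM (28.1 ± 2.06, SD, n = 2) and 12.1 and 12.4 CPM (12.2 ± 0.197, SD, n = 2). In both rats the order of counts was Kcnh7, Kcnh1 and Kcnh5, and each step was more than 2 times in counts, 2.48 and 2.20 in replicate 1 and 2.37 and 2.39 in replicate 2.

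Other potassium channel genes respond to ions or set the resting potential. Kcnma1, the large-conductance calcium-activated channel, had 36.4 and 44.4 CPM (40.4 ± 5.63, SD, n = 2). Kcnt2, the sodium-activated channel Slick, had 25.3 and 34.3 CPM (29.8 ± 6.41, SD, n = 2). Both were higher in replicate 2 beyond counting error, with log2 ratios of 0.29 for Kcnma1 (interval 0.12 to 0.45) and 0.44 for Kcnt2 (interval 0.25 to 0.64). Kcnj9, a G protein-gated inward rectifier subunit, had 21 and 59 counts, or 1.996 and 2.05 CPM (2.02 ± 0.0359, SD, n = 2). Kcnk5, a background potassium channel, had 3.90 and 3.33 CPM (3.61 ± 0.401, SD, n = 2). Kcne3 (ENSRNOG00000017054), a small accessory subunit of Kv channels, had 55 and 97 counts, or 5.23 and 3.37 CPM (4.30 ± 1.32, SD, n = 2), and showed the largest difference between rats of the list.

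The 8 calcium channel and Cacng genes took 7.96% of the counts on the list in replicate 1 and 7.93% in replicate 2. Cacna1b encodes the N-type channel that triggers transmitter release at nociceptor terminals, and had 130.1 and 151 CPM (141 ± 15.01, SD, n = 2). Cacna1a encodes the P/Q-type channel and had 98.3 and 101 CPM (99.8 ± 2.11, SD, n = 2). The ratio of their counts was 1.32 in replicate 1 and 1.49 in replicate 2. Cacna1g, a T-type channel that opens near the resting potential, had 24 and 60 counts, or 2.28 and 2.08 CPM (2.18 ± 0.141, SD, n = 2). Cacna2d3 and Cacnb4 are auxiliary subunits that help bring the pore to the membrane and tune its gating. Cacna2d3 had 104 and 101 CPM (102 ± 1.80, SD, n = 2) and Cacnb4 67.4 and 70.2 CPM (68.8 ± 2.02, SD, n = 2).

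Cacng4, Cacng5 and Cacng8 carry a calcium channel name, and their proteins are known mainly as partners of AMPA-type glutamate receptors. Cacng4 had 34.2 and 28.7 CPM (31.5 ± 3.88, SD, n = 2), Cacng5 16.1 and 20.7 CPM (18.4 ± 3.31, SD, n = 2) and Cacng8 1.43 and 2.05 CPM (1.74 ± 0.439, SD, n = 2). Cacng4 was lower in replicate 2 (-0.25, interval -0.43 to -0.070) and Cacng5 higher (0.37, interval 0.12 to 0.62), and both intervals left out 0. Cacng8 (ENSRNOG00000057848) rested on 15 and 59 counts. Its ratio (0.52, interval -0.31 to 1.45) had an interval that includes 0.

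The 5 TRP channel genes took 4.28% (4.12-4.44%) of the counts on the list in replicate 1 and 4.71% (4.61-4.81%) in replicate 2. Trpa1, the receptor for irritants such as mustard oil, had 102 and 112 CPM (107 ± 7.32, SD, n = 2). Trpm8 (ENSRNOG00000019035), the receptor for cold and menthol, had 66.4 and 95.5 CPM (80.97 ± 20.6, SD, n = 2), from 699 and 2753 counts. Its ratio between rats (0.52, interval 0.40 to 0.65) was beyond counting error. Trpm8 marks a small class of neurons, and in bulk tissue fewer cells of a type and less RNA per cell cannot be told apart. Trpv2 had 69.01 and 68.3 CPM (68.7 ± 0.470, SD, n = 2). Trpv3, a warmth-sensitive channel best known in keratinocytes, had 27 and 96 counts, or 2.57 and 3.33 CPM (2.95 ± 0.540, SD, n = 2), and Trpc5, which is known for cold responses, had 3.99 and 4.65 CPM (4.32 ± 0.464, SD, n = 2).

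The promoter of Trpm8 is shown because this gene differed most between rats among those with more than 100 counts in each library. In addition, 2 genes of the list with an entry have a TATAAA in this window, Clcn1 and Trpm8. That is 4.55% of the list's genes with 1 entry, against 12.6% of all protein-coding genes with 1 entry. A link between the motif and the difference between rats was not tested. The window, in GRCr8, has 3 CG dinucleotides, in capitals.
Trpm8, chr9:96351433-96351682, plus strand: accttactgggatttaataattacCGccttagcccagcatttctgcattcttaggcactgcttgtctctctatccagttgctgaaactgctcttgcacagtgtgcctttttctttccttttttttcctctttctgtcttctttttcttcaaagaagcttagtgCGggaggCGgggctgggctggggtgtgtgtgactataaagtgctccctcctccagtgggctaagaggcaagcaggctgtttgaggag
The sequence TATAAA lay from 54 to 49 bases before the gene start.

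Asic3, the acid-sensing channel of muscle and skin afferents, had 97.9 and 92.5 CPM (95.2 ± 3.85, SD, n = 2), and Asic2 9.12 and 9.54 CPM (9.33 ± 0.294, SD, n = 2). The counts on Asic3 were 10.7 times those on Asic2 in replicate 1 and 9.69 times in replicate 2. P2rx5 and P2rx7 encode ATP-gated channels, and P2rx7 is best known in immune cells and glia. P2rx5 had 33.7 and 31.1 CPM (32.4 ± 1.86, SD, n = 2) and P2rx7 17.2 and 21.2 CPM (19.2 ± 2.85, SD, n = 2).

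Of the chloride channel family, Clcn2 encodes an inwardly rectifying channel, Clcn5 an endosomal chloride-proton exchanger and Clcn1 the main chloride channel of skeletal muscle. Clcn2 had 17.1 and 19.8 CPM (18.5 ± 1.91, SD, n = 2), Clcn5 37.6 and 39.6 CPM (38.6 ± 1.40, SD, n = 2) and Clcn1 5.04 and 4.48 CPM (4.76 ± 0.398, SD, n = 2). Ano4, an anoctamin, had 105 and 103 CPM (104 ± 1.35, SD, n = 2). The level of Clcn1 was low in both rats, with 53 and 129 counts.

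The 8 GABA-A and glycine receptor genes took 14.2% of the counts on the list in replicate 1 and 14.8% in replicate 2, and each of the 8 was higher in replicate 2. GABA-A receptors are pentamers, usually of alpha, beta and gamma subunits. Gabra2 had 144 and 158 CPM (151 ± 10.5, SD, n = 2). Gabra5, whose subunit is known mainly outside synapses, had 12.8 and 13.01 CPM (12.9 ± 0.125, SD, n = 2). Gabra2 counts were 11.2 times those of Gabra5 in replicate 1 and 12.2 times in replicate 2. Gabrb2, a beta subunit gene, had 5.51 and 6.87 CPM (6.19 ± 0.959, SD, n = 2), and Gabrg1, a gamma subunit gene, had 61.3 and 71.3 CPM (66.3 ± 7.06, SD, n = 2). Glrb, the glycine receptor beta subunit that anchors the receptor to gephyrin at synapses, had 301 and 340.0 CPM (320.4 ± 27.7, SD, n = 2). No gene of a glycine receptor alpha subunit is on the list.

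Gria1, an AMPA receptor subunit, had 4.47 and 4.37 CPM (4.42 ± 0.0681, SD, n = 2) and Grin1, the obligatory subunit of NMDA receptors, 78.8 and 85.8 CPM (82.3 ± 4.95, SD, n = 2). Of the nicotinic receptor genes, Chrnb2 had 95.6 and 99.1 CPM (97.4 ± 2.47, SD, n = 2), Chrna7 58.7 and 61.2 CPM (59.95 ± 1.71, SD, n = 2) and Chrna5 12.4 and 15.4 CPM (13.9 ± 2.13, SD, n = 2). Chrnb2 and Chrna7 counts were 7.74 and 4.75 times Chrna5 counts in replicate 1 and 6.45 and 3.98 times in replicate 2. Htr3b, a subunit of the serotonin-gated 5-HT3 receptor, had 101 and 98.2 CPM (99.8 ± 2.18, SD, n = 2). Ryr2, the calcium release channel of the endoplasmic reticulum, had 96.9 and 111 CPM (104 ± 10.4, SD, n = 2).

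The 5 genes that are no channel genes took 7.21% of the counts on the list in replicate 1 and 6.33% in replicate 2. Itprid2, whose protein binds the inositol trisphosphate receptor, had 242 and 227 CPM (234 ± 10.9, SD, n = 2). Glrx, the redox enzyme glutaredoxin, had 111 and 96.6 CPM (104 ± 9.98, SD, n = 2). Both were lower in replicate 2 beyond counting error. Tmem163, a zinc transporter, had 30.7 and 32.2 CPM (31.4 ± 1.05, SD, n = 2), Tmem169 22.5 and 19.9 CPM (21.2 ± 1.82, SD, n = 2) and Itpripl2 4.85 and 6.35 CPM (5.60 ± 1.06, SD, n = 2). Without these 5 genes the median level of the list was 55.1 CPM.

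The median size of the log2 ratio between the 2 rats was 0.132 over the list and 0.128 over all 15115 genes. The median level was 50.3 CPM in the list and 21.4 CPM in all these genes, and counting error in a ratio falls as counts grow. The genes were not matched for level, so this spread and the shares that follow are not compared at like counts. A difference of over 0.5 on the log2 scale was seen in 3 of 63 genes (4.76%), against 7.75% of all 15115 genes. Among the other genes of the study's shared list with 10 counts in both libraries the share was 6.18%. The study's comparison of CFA with naïve rats used these 2 libraries, so their spread is not independent of membership in the list. The 3 genes were Kcne3, lower in replicate 2, and Trpm8 and Cacng8, higher in replicate 2. Kcne3 was at 5.23 and 3.37 CPM with a log2 ratio of -0.64 (interval -1.13 to -0.13). Trpm8 was at 66.4 and 95.5 CPM with a log2 ratio of 0.52. Within 0.25 lay 51 of the 63 genes (81.0%), against 75.2% of all genes. Of the 12 genes that differed by more than 0.25, 5 had under 100 counts in replicate 1, where the counting interval alone was wide. In replicate 1 the counting interval of a level reached on average 2.45% to either side for Scn1a, 8.70% at the median of the list and 54.5% for Cacng8. The counting interval of the ratio left out equality for 26 of 63 genes (41.3%), against 25.6% of all genes, and these intervals narrow as the counts on a gene grow.

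Of the 63 genes, 44 were higher in replicate 2 and 19 in replicate 1, which is 69.8% higher in replicate 2 against 47.5% of all genes, and the median ratio was 0.068 against -0.011. Among the 26 genes with an interval that left out equality, 21 were higher in replicate 2. The same split by direction was not counted over all genes, so this count has no background to be read against. Whatever their interval, 39 of the 51 pore-forming genes and 3 of the 7 auxiliary subunits were higher in replicate 2. Sums of cell type markers were compared between the rats as well. Only genes in the study's lists of genes changed in both models could serve as markers, and its CFA comparison used these 2 libraries. The sums are therefore not independent measures of cell content. The summed sensory neuron markers were 0.042 higher in replicate 2 on the log2 scale, with 6 of 10 higher. This rests on the neurofilament gene Nefh, without which the other 9 summed to 30409 and 30411 CPM. Most of the sum of all 10 was Nefl, Nefm and Nefh. Calca (-0.17) and Stmn2 (-0.069) were lower beyond counting error, and Nefh (0.21), Ret (0.075) and Nefl (0.034) were higher beyond it. The summed satellite glia markers were 0.13 lower, with 1 of 4 higher. Most of that sum was Ttyh1, at 285 and 263 CPM (-0.12). Gfap (-0.56) and Rlbp1 (-0.58) were lower by more, and Gja1 (0.056) was higher. The summed Schwann cell markers were 0.049 lower, with 3 of 6 higher. Mbp, at 2089 and 1981 CPM, took most of that sum. The summed vascular and fibroblast markers were 0.036 lower, with 2 of 3 higher, and the interval (-0.078 to 0.0056) includes 0. Most of this sum was Col1a1, at 524 and 501 CPM, while Kdr (0.28) and Pdgfrb (0.093) were higher. The part of these cell type markers in the difference between rats was not tested. The depth of the 2 libraries, which differs by 2.74 times, cannot be told apart from the rat.

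**Figure D3:**
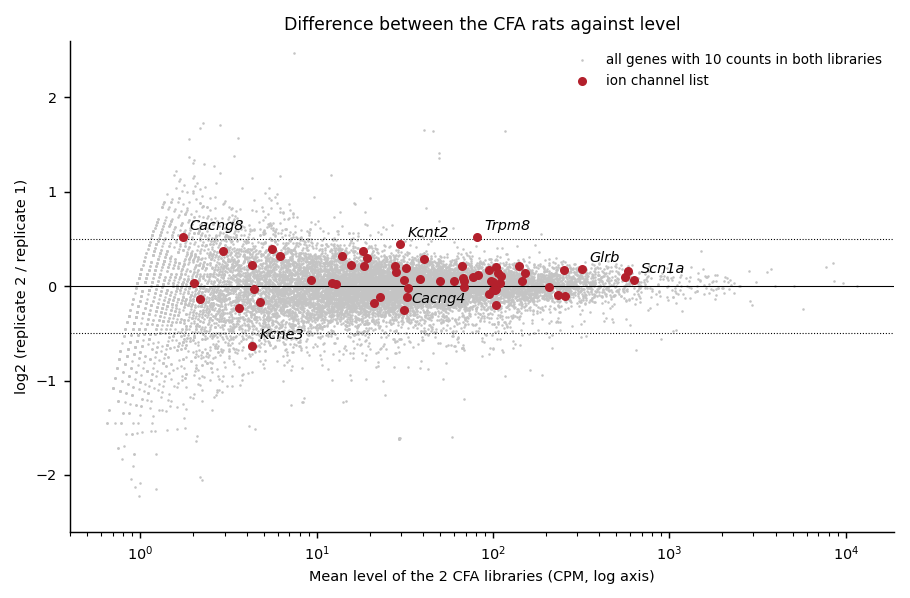
Log2 ratio of CFA replicate 2 to CFA replicate 1 against the mean level in CPM (log axis) for the 15115 genes that reached 10 counts in each library (grey) and the 63 genes of the list (red). Dotted lines mark 0.5 in either direction. Kcne3, Trpm8 and Cacng8 lie outside them, and Kcnt2, at 0.44, lies just inside.

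Ratios of 2 genes within a library do not depend on its depth. Over 13 pairs of related genes, the ratio in replicate 2 was between 0.763 and 1.13 times that in replicate 1. The counting interval of this quotient included 1 for 10 pairs and left it out for 3. Trpa1 to Trpm8 changed most among these 3, from 1.53 in replicate 1 to 1.17 in replicate 2, a quotient of 0.766 (0.687-0.855). Cacna1b to Cacna1a had a quotient of 1.13 (1.03-1.24) and Scn1a to Scn8a one of 0.930 (0.881-0.981). These intervals cover counting error only and narrow as the counts on a pair grow. Other gene pairs were not counted, so the 3 of 13 has no background to be read against. Scn9a to Scn10a, the pair of nociceptor sodium channels, stayed near equal counts, at 1.02 and 1.07. With n = 2 the rats' own spread cannot be estimated beyond these pairs of values.

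**Figure D4:**
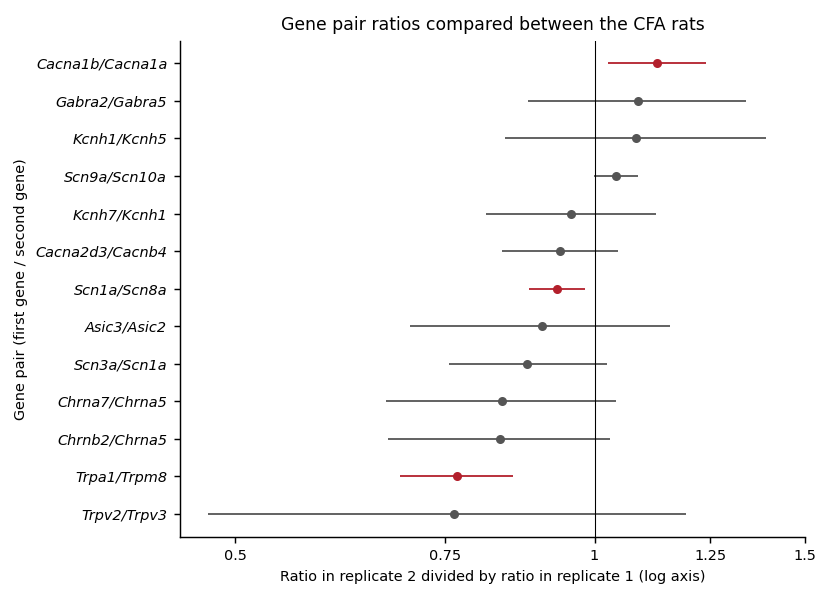
For 13 pairs of related genes, the ratio of counts in CFA replicate 2 divided by the ratio in CFA replicate 1 (log axis), with exact 95% conditional intervals as bars. Red marks the 3 pairs whose interval leaves out 1, and the other 10 are grey.

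Several genes of the list are neighbours on a chromosome. In the gene order of GRCr8, 3 such pairs are Scn1a with Scn9a, Gabra2 with Gabrg1 and Cacng4 with Cacng5, each with no other protein-coding gene between them. Gabra2 was at 150.9 CPM and Gabrg1 at 66.3 CPM. Scn1a and Scn9a had 626.9 and 584.2 CPM. Cacng4 and Cacng5 were the one of these 3 pairs that differed in direction between the rats.

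Of the 63 genes, 44 had 1 promoter entry in RefSeq, 2 had 2 entries and 17 had none and are not described. The median GC content of the 250 bases before the start was 60.2% in the 44 genes and 54.8% in all 17545 protein-coding genes with 1 entry. At least 10 CG dinucleotides were found in 28 of 44 (63.6%) and in 49.5% of all. GGGCGG, searched on both strands, was in 24 of 44 (54.5%) against 40.9% of all. CCAAT was in 8 (18.2%) against 35.6%, TATAAA in 2 (4.55%) against 12.6% and TGANTCA in 3 (6.82%) against 5.84%. TGACGTCA was in none, against 2.05% of all. None of these motifs contains another. The rank correlation of the number of CG dinucleotides with CPM over the 44 genes was 0.14, and with the size of the difference between rats -0.13. The points share the same libraries and the correlations are descriptions only. The 5 genes of the calcium channel family with 1 entry had a median of 28 CG dinucleotides (range 2 to 34). The 4 of the TRP family had a median of 7 (3 to 10), and the 3 of the chloride channel and anoctamin family 4 (2 to 30).

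**Figure D5:**
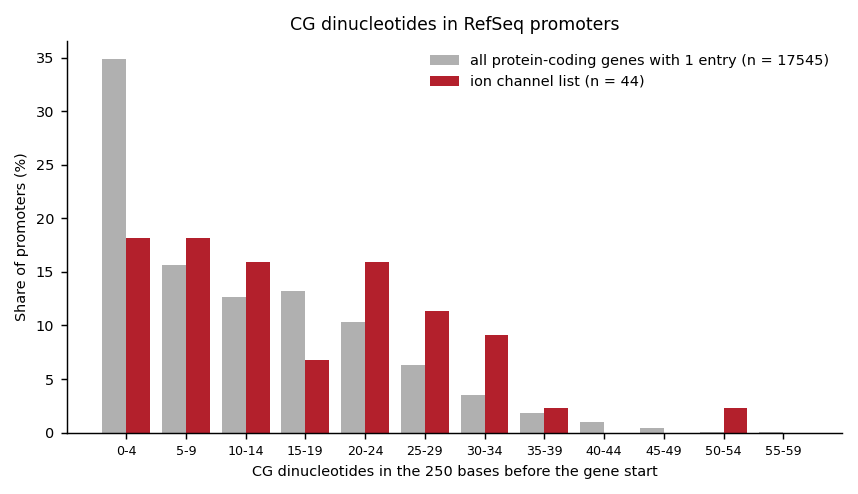
Share of promoters in percent against the number of CG dinucleotides in the 250 bases before the gene start, for the 44 genes of the list (red) and all 17545 protein-coding genes with 1 entry (grey). The lowest class, 0 to 4, held 8 of the 44 genes (18.2%) and 34.9% of all genes, and Scn8a is alone in the class from 50 to 54.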

How the data were processed

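RNA was sequenced from poly(A) RNA with a directional kit. The authors aligned reads with HISAT2 to rn6, removed ribosomal reads and counted them per Ensembl gene with featureCounts. They deposited raw counts, without normalization. The strand setting of the counting is not given in the sources used here, so a gene and an overlapping antisense gene may share reads. Each library was made from 1 rat, 48 h after CFA.

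Counts were divided by the library total (10520647 and 28825688) to give CPM. Symbols were paired with Ensembl genes through the study's supplementary lists, of which only identifiers and symbols were used. Intervals are exact Poisson for levels, conditional binomial for ratios between rats, binomial for shares and conditional odds ratio for gene pairs, at 95%. No test between conditions was possible. The planned scaling by coding length could not be made, so pairs and families use raw counts. The ATAC-seq tables were not used here. The code was tested on simulated data. Python 3.11.15, scipy 1.17.1 and, for TMM, edgeR 4.0.16 were used.

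The members and lists were chosen with earlier results of these data known. Named genes are the genes of the list, of which 5 are not reported here, and the extremes and compared genes of the context lists. Alternatives were other size factors, a pseudocount of 1 CPM, a minimum of 10 counts, channel genes only and leaving out each library. Promoters come from RefSeq, GRCr8, matched by symbol.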

Additional observations from a re-analysis of the deposited data

How the results depend on the processing

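The median level of the list was 50.3 CPM with library totals, median-of-ratios size factors and TMM, and 55.1 CPM with channel and subunit genes alone. Leaving out either library gave 49.3 and 51.2 CPM. A pseudocount of 1 CPM left 2 instead of 3 genes over 0.5 apart between the rats, and both other scalings left 3. Under either of these scalings 47 instead of 44 genes were higher in replicate 2, against 51.3% and 50.9% of all genes. The requirement of 10 counts removed no gene of the list. Scaling by coding length was not run. No paired analysis was possible because both RNA libraries belong to 1 group. Counting error limits the genes with few counts, and with 1 rat per library and 2 rats the spread between animals is known only from single pairs of values.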

Other observations

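The study's shared list also holds channel genes and channel partners outside the name rule, of which 33 were looked at. Their median level was 58.3 CPM, 16 of the 33 (48.5%) were higher in CFA replicate 2, against 47.5% of all genes, and 4 (12.1%) differed by more than 0.5 on the log2 scale, against 7.75%. These 4 were Neto1, Best1, Tpcn2 and Stac2, and the interval of Stac2 (-0.59, -1.38 to 0.23) includes 0. Adam23, which codes for a neuronal surface protein that binds Lgi proteins, took the most counts of the 33 genes, with 484.7 and 465.7 CPM. Stac2, an adaptor of calcium channels, took the fewest, with 2.09 and 1.39 CPM from 22 and 40 counts.

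The genes with the highest log2 ratio of replicate 2 to replicate 1 were Neto1, Neto2 and Dpp10, chosen after their values were seen. Neto1, an auxiliary subunit of kainate receptors, had 4.18 and 6.52 CPM, a log2 ratio of 0.64 with an interval of 0.16 to 1.15. Neto2, its relative, had 10.7 and 15.1 CPM, a ratio of 0.49 with an interval of 0.19 to 0.81. Dpp10, which modifies Kv4 channels, had 117 and 156 CPM, a ratio of 0.42 with an interval of 0.33 to 0.51. Its relative Dpp6 had 348 and 359 CPM, a ratio of 0.043 with an interval of -0.012 to 0.097. In the same libraries the Kv4 gene Kcnd1 had 208 and 206 CPM.

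Lower in replicate 2 were Best1, a calcium-activated chloride channel, at 5.13 and 3.40 CPM with a ratio of -0.59 (-1.09 to -0.087), and Tpcn2, a channel of lysosomes, at 19.3 and 12.9 CPM with a ratio of -0.58 (-0.84 to -0.33).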
